A study of Mus musculus with 20 samples.

Results

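The genes described here are 3 protease inhibitors of the cystatin family, Cst7, Cst3 and Cstb, and 7 lysosomal proteases named cathepsins, Ctsb, Ctsl, Ctss, Ctsz, Ctsh, Ctsd and Ctsa. They were chosen by name, with earlier results of these data known. They are 10 of the 19751 genes for which a probe set of the array named a single gene. Each was read by 1 probe set. All 10 lay above the 40th percentile of the array in 19 of 19 arrays, so none passed the filter on dim genes through a single group. In all, 12728 genes passed it and were tested.

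Cathepsins are made as inactive precursors, sorted to endosomes and lysosomes, largely by the mannose 6-phosphate signal, and activated there by cleavage at acid pH. Most are cysteine proteases; cathepsin D uses an aspartate in its active site and cathepsin A a serine. Cystatins fill the active site cleft of cysteine cathepsins and block it. In microglia, the macrophages that reside in brain tissue, this system digests phagocytosed material and cleaves the invariant chain during antigen presentation.

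RNA was measured on one-colour microarrays in microglia sorted by fluorescence from brains of littermate mice aged 8.5 months, with labelled cRNA made from 2 ng of total RNA. The 4 genotypes were WT (4 arrays), Trem2-/- without the microglial lipid receptor Trem2 (4 arrays), 5XFAD, a model of amyloid deposition that carries mutant human transgenes driven by the neuronal Thy1 promoter (5 arrays), and Trem2-/-5XFAD with both changes (6 arrays). The design allows the change with 5XFAD to be measured with and without Trem2, and the change with loss of Trem2 to be measured with and without 5XFAD. One further array, titled as WT but given the genotype Trem2-/-, was placed in no group.

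The deposited intensities had medians of 25.7 to 28.6 on the 20 arrays, and log2 values of different arrays correlated at 0.967 to 0.992. Log2 Trem2 was 6.75 to 7.60 in the 10 arrays labelled as lacking it and 11.14 to 11.80 in the 9 labelled as having it, and the array with conflicting labels had 11.08. Of 12 microglial markers, 11 were measured, and their mean log2 level was 11.26 to 11.50 in WT, 11.23 to 11.33 in Trem2-/-, 10.79 to 10.98 in 5XFAD and 11.15 to 11.23 in Trem2-/-5XFAD. Markers of border macrophages, which were 12 of 12 measured, had mean levels of 5.86 to 6.66, 6.23 to 7.22, 5.18 to 5.80 and 6.12 to 6.73 in the same order of groups. Astrocyte markers (13 of 13 measured) had mean levels of 4.92 to 5.06, 4.79 to 4.93, 5.21 to 5.60 and 4.97 to 5.22. These means were higher with the transgenes without overlap for either Trem2 genotype. Among the markers, Gfap had a group mean of 4.22 in WT and 6.38 in 5XFAD. In that comparison, 2 of the 9 astrocyte markers tested were called higher and 1 lower. Monocyte markers (9 of 11 measured) had mean levels of 3.84 to 4.01 in WT and 4.07 to 4.50 in 5XFAD; among them Anxa2 had group means of 4.29 and 7.06, while Ccr2 had 4.18 and 3.71 and Vcan 2.99 and 2.90. Markers of neurons, oligodendrocytes and vascular cells overlapped between WT and 5XFAD. Between Trem2-/- and Trem2-/-5XFAD, oligodendrocyte markers did not overlap (mean levels of 4.58 to 4.74 and 4.79 to 4.90), while neuron and vascular markers did. Salivary gland transcripts had a mean level of 5.11 to 5.61 in WT arrays 1 and 2 and 5XFAD arrays 1 and 2, against 3.20 to 4.22 in the other assigned arrays. Neutrophil markers were highest in Trem2-/- array 1 (6.17) and Trem2-/-5XFAD array 1 (6.19). Xist signal, a mark of female samples, was present in 3 of 4 WT, 3 of 4 Trem2-/-, 1 of 5 5XFAD and 0 of 6 Trem2-/-5XFAD arrays, so sex and genotype are partly confounded. In bulk RNA of sorted cells, a change in the number of cells of a type and a change in RNA per cell cannot be told apart.

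For 7 of the 10 genes (all but Cstb, Ctsb and Ctsh) a promoter sequence from RefSeq (build GRCm38.p6) was used, and the 250 bases before the start site were searched on both strands for the sequences CACGTG, the core of the site bound by TFEB, a regulator of lysosomal genes, GAGGAA, the core of the site bound by the macrophage factor PU.1, and TGACTCA, the site of AP-1. None of the 3 contains another, although matches may overlap. The windows shown are those of Cst7, Ctsz and Ctsd. Log2 values of Cst7 and Ctsz had the highest Pearson correlation among the 10 genes over all assigned arrays (0.966), and 0.341 after removal of group means. The window of Ctsd holds CACGTG at 245 and 98 bases before the start. They lie at chr2:150570165-150570414 (plus strand), chr2:174439040-174439289 (minus strand) and chr7:142387828-142388077 (minus strand), and capitals mark matches to the searched sequences.
Cst7: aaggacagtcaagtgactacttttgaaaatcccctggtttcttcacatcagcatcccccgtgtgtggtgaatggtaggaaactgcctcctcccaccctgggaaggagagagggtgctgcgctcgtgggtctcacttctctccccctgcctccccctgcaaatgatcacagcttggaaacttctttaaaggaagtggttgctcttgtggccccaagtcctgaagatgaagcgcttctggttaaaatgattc
Ctsz: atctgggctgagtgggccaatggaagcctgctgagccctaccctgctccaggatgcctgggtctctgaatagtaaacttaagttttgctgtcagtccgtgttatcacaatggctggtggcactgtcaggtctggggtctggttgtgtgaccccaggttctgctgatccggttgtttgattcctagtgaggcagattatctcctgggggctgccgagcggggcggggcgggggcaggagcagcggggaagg
Ctsd: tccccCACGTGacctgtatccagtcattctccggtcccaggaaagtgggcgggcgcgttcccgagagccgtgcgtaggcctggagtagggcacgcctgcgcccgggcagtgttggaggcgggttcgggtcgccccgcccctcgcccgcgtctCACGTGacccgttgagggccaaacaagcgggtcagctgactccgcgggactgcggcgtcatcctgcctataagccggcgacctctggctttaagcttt
CACGTG was present in 3 of the 8 windows of these genes (Ctsa has 2 windows), namely those of Ctsd, Ctsl (236 bases before the start) and Ctsa (12 bases before), and in 6.02% of all 32851 windows. GAGGAA was present in the windows of Cst3 (230 bases before) and Ctss (164 bases before), and in 23.3% of all windows. TGACTCA was in none of the 8, and in 4.46% of all windows. None of the 3 searched sequences was found in the windows of Cst7 and Ctsz.

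With 5XFAD in the presence of Trem2, 6 of the 10 genes rose and none fell. These were the inhibitors Cst7 and Cstb and the cysteine proteases Ctsz, Ctsb, Ctsl and Ctsh; over all tested genes 15.0% were called in this comparison, 8.23% as higher and 6.77% as lower. In 7 of the 10 genes every 5XFAD array was above every WT array, which was so for 7.13% of all genes. The median difference of the 10 genes was 0.40 on the log2 scale, against -0.02 over all genes tested. As the 10 genes were chosen with earlier results of these data known, the shares over all genes are a description and no test. Mean levels of astrocyte and monocyte markers were also higher in 5XFAD than in WT. Of 9 tested astrocyte markers, 2 were called higher and 1 lower, with a median difference of 0.28. Of 4 tested monocyte markers, 1 was called higher and none lower, with a median difference of -0.0044. With the mean of astrocyte, neuron, oligodendrocyte and vascular markers as a covariate, 5 of the 6 genes were still called. Ctsh was then 0.40 higher (limma, adjusted p = 0.0646). This covariate pools the astrocyte markers with lists that overlapped between WT and 5XFAD. The part of the astrocyte markers alone was not tested, nor was that of the monocyte markers. Without Trem2, 4 genes rose with 5XFAD, Cst7, Ctsz, Ctsb and Ctsl, where 2.18% of all genes were called, 1.63% as higher, and the medians were 0.28 and 0.02. In 6 of the 10 genes every Trem2-/-5XFAD array was above every Trem2-/- array, which was so for 3.95% of all genes. With the same covariate, Ctsb and Ctsl were 0.43 and 0.43 higher in this comparison and were not called (limma, adjusted p = 0.163 and 0.104).

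Loss of Trem2 lowered Cst7 alone among the 10, both in 5XFAD mice and in mice without the transgenes. In the comparison of Trem2-/-5XFAD with 5XFAD, 7.68% of all genes were called, 4.46% as lower, groups did not overlap, with the lower values without Trem2, in 4.11%, and the median was -0.18 for the 10 genes and 0.04 for all. With an intensity trend and robust prior in limma, Ctsz, Ctsb and Ctsh were also called lower there, by -0.20, -0.22 and -0.25 (adjusted p = 0.0371, 0.0442 and 0.0431). In that of Trem2-/- with WT, 0.613% were called, 0.228% as lower, groups did not overlap in that direction in 2.69%, and the medians were -0.07 and -0.01. The interaction, which subtracts the difference between 5XFAD and WT from that between Trem2-/-5XFAD and Trem2-/-, was called for Cst7 alone; 2.60% of all genes were called in it, 1.58% as lower, and the medians were -0.06 and 0.03.

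**Figure D1:**
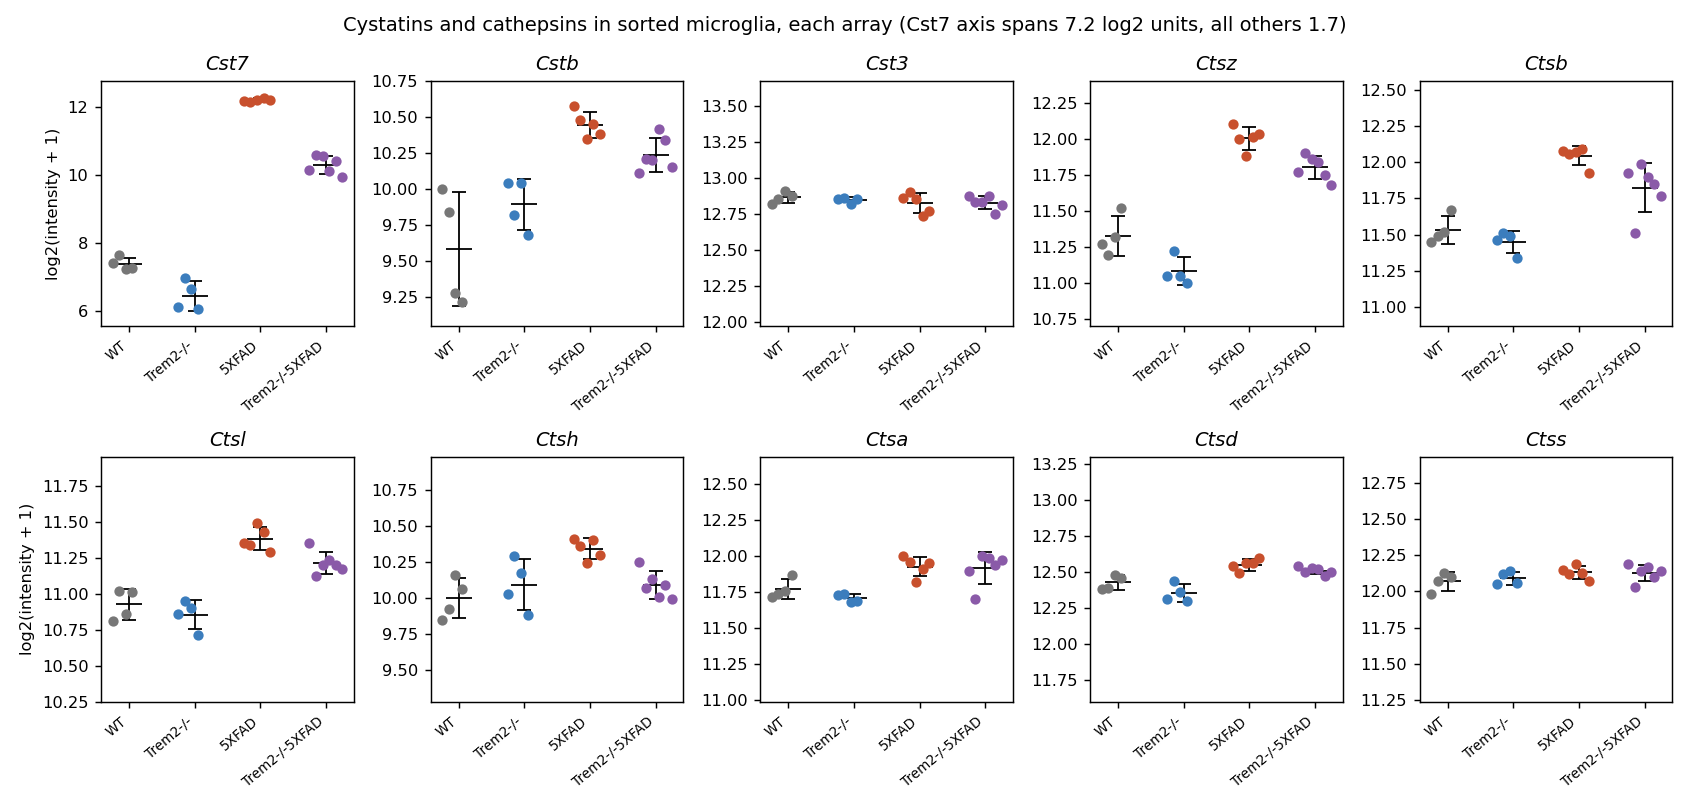
Log2 intensity of the 10 genes in every assigned array of the 4 genotypes, with 1 point per array and bars for the group mean ± SD; the Cst7 panel has a wider vertical scale than the other 9. The 5 Cst7 values of 5XFAD lie between 12.15 and 12.28 and the 6 of Trem2-/-5XFAD between 9.95 and 10.61, both above all WT and Trem2-/- values.

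Cst7 encodes cystatin F, an inhibitor that, unlike most cystatins, is sorted to endosomes and lysosomes, where it is cleaved to its active form. Its log2 intensity in WT arrays 1 to 4 was 7.42, 7.65, 7.25 and 7.28. In Trem2-/- arrays 1 to 4 it was 6.13, 6.99, 6.67 and 6.06. The groups did not overlap, and the Trem2-/- values spread more widely. In 5XFAD arrays 1 to 5 it was 12.19, 12.15, 12.22, 12.28 and 12.21. In the 6 Trem2-/-5XFAD arrays the lowest, median and highest values were 9.95, 10.29 and 10.61. All 4 groups stood apart from each other, in the order Trem2-/-, WT, Trem2-/-5XFAD and 5XFAD, and the array with conflicting labels, at 7.62, lay among the WT values.

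Cst7 rose 28.1-fold with 5XFAD, by 4.81 ± 0.17 on the log2 scale (SE; limma, adjusted p = 9.5e-14), and 14.4-fold in the absence of Trem2, by 3.84 ± 0.16 (adjusted p = 3.69e-12). In the first comparison it held rank 3 among the tested genes by size of increase, and in the second rank 1. In 5XFAD mice, loss of Trem2 lowered it: it fell by 1.90 ± 0.15 (limma, adjusted p = 3.02e-08), and the mean intensity was 4744 ± 162 (SD, n = 5) with Trem2 and 1285 ± 233 (SD, n = 6) without. These 3 differences were called under every alternative tried, with values of 4.57 to 5.00, 3.61 to 4.25 and -2.13 to -1.78.

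In mice without the transgenes, Cst7 was lower without Trem2, by -0.94 ± 0.18 on the log2 scale (limma, adjusted p = 0.0153; 4 and 4 arrays). This call was lost without Trem2-/- array 1 or 4 (-0.83 and -0.80, adjusted p = 0.0642 and 0.0555), and over all alternatives the difference ran from -1.59 to -0.71 with adjusted p from 0.00302 to 0.347. Without the arrays highest in neutrophil markers it was -0.83 (limma, adjusted p = 0.084), and without the 4 arrays with salivary gland transcripts -0.81 (adjusted p = 0.092). With neutrophil markers as a covariate the difference was -0.79 (limma, adjusted p = 0.111). With the salivary gland transcripts as a term it was -0.90 (limma, adjusted p = 0.0359) and still called. The part of these markers in the difference was not tested beyond these values.

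The interaction for Cst7 was -0.97 ± 0.23 on the log2 scale (limma, adjusted p = 0.0288), so the increase with 5XFAD on this scale was smaller without Trem2 (3.84) than with it (4.81). It missed the threshold without WT array 3 or 4, Trem2-/- array 2 or 3, 5XFAD array 4 or Trem2-/-5XFAD array 4, with values of -0.95 to -0.79 and adjusted p of 0.0507 to 0.0697. Among arrays with Y-linked signal only, which hold 1 WT and 1 Trem2-/- array, it was -0.32; these 2 groups have no spread of their own there, so the SE of 0.32 and the limma adjusted p of 0.762 assume that they vary like the other groups. Without the arrays with salivary gland transcripts the interaction was -1.13 (limma, adjusted p = 0.0511).

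Cstb encodes stefin B, an inhibitor of cysteine cathepsins in the cytosol and nucleus. Its log2 intensity in WT arrays 1 to 4 was 10.001, 9.84, 9.28 and 9.22, and WT arrays 1 and 2, which carry salivary gland transcripts, were the higher pair. In Trem2-/- arrays 1 to 4 it was 10.04, 9.82, 10.04 and 9.68. In 5XFAD arrays 1 to 5 it was 10.58, 10.48, 10.35, 10.45 and 10.38, all above WT. In Trem2-/-5XFAD the lowest, median and highest values were 10.11, 10.20 and 10.42, above all Trem2-/- values.

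Cstb rose with 5XFAD by 0.86 ± 0.14 on the log2 scale (limma, adjusted p = 1.69e-04). Without Trem2 the difference with 5XFAD was 0.34 ± 0.14 (adjusted p = 0.231), and the interaction was -0.52 ± 0.20 (adjusted p = 0.198). Within WT the salivary gland transcripts move with this gene: the 2 arrays with them averaged 9.92 and the 2 without 9.25. In 5XFAD these averages were 10.53 and 10.39. The array with conflicting labels had Cstb at 10.004 with a salivary gland mean of 3.30. Trem2-/- arrays, with Cstb at 9.68 to 10.04, had salivary gland means of 3.26 to 4.22. Without the 4 arrays with salivary gland transcripts, WT holds arrays 3 and 4 alone. The difference with 5XFAD was then 1.15 (limma, adjusted p = 3.26e-05). That between Trem2-/- and WT became 0.65 (limma, adjusted p = 0.0132), against 0.31 with all arrays (adjusted p = 0.396). The interaction became -0.80 (limma, adjusted p = 0.0149). Within those 4 arrays alone the difference with 5XFAD was 0.61 (limma, adjusted p = 0.181), and with the transcripts as a term it was 0.90 (adjusted p = 1.3e-05). Border macrophage markers were also higher in WT arrays 1 and 2, with means of 6.29 and 6.66. In WT arrays 3 and 4 these means were 5.96 and 5.86. With these markers as a covariate, Cstb differed between Trem2-/- and WT by 0.13 (limma, adjusted p = 0.863). The interaction was then -0.58 (limma, adjusted p = 0.12). The part of either set of markers in the Cstb levels was not tested beyond these values.

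**Figure D2:**
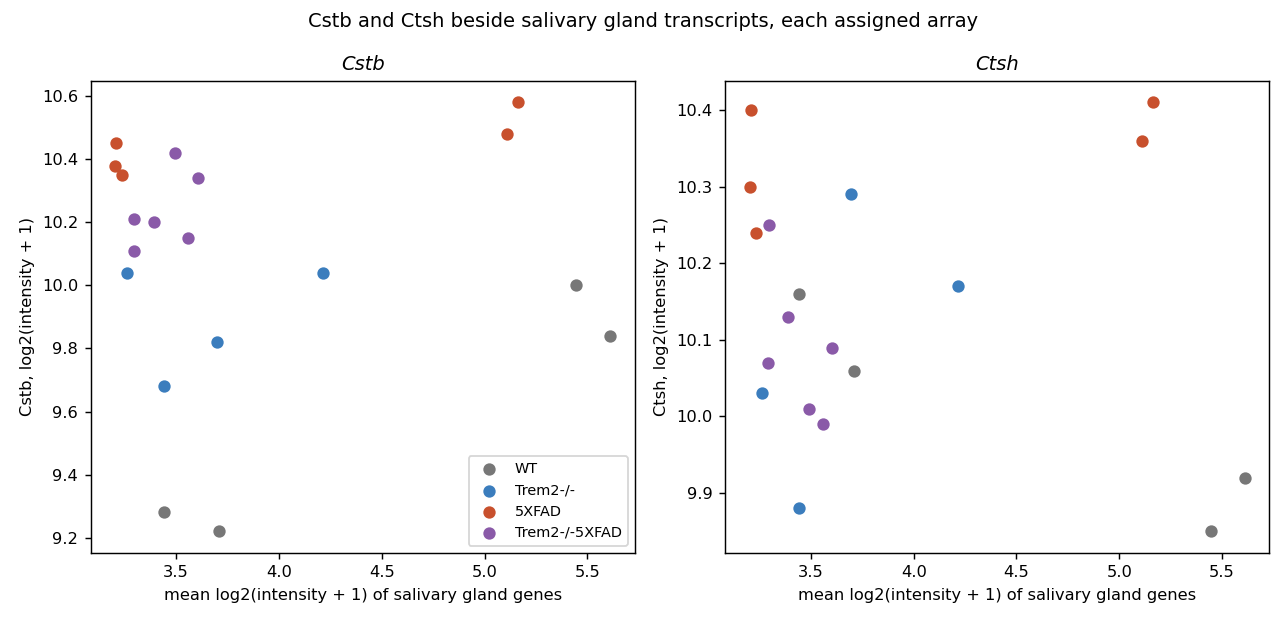
Log2 intensity of Cstb (left) and Ctsh (right) against the mean log2 intensity of the salivary gland genes, 1 point per assigned array, coloured by genotype. The WT arrays with these transcripts averaged 9.92 for Cstb and 9.89 for Ctsh, and those without averaged 9.25 and 10.11.

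Cst3 encodes cystatin C, a secreted inhibitor that microglia make in large amounts. Its log2 intensity ran from 12.82 to 12.91 in WT, 12.82 to 12.86 in Trem2-/-, 12.73 to 12.90 in 5XFAD and 12.75 to 12.87 in Trem2-/-5XFAD. The 4 groups overlapped, and the difference with 5XFAD was -0.04, with a 95% confidence interval of -0.20 to 0.12 (limma, adjusted p = 0.816). By percentile of the assigned arrays, Cst3 lay at 99.9 to 100, Ctsd at 99.8 to 99.9 and Ctss at 99.5 to 99.7. Ctsb, which was called with 5XFAD, lay at 99 to 99.6. Whether differences are narrowed at such high levels was not tested.

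Of the cysteine proteases, Ctsz, Ctsb, Ctsl and Ctsh rose with 5XFAD, and Ctss was not called. Ctsz encodes cathepsin Z, a carboxypeptidase that removes single residues from the end of proteins. Its log2 intensity in WT arrays 1 to 4 was 11.27, 11.19, 11.32 and 11.52, and in Trem2-/- arrays it was 11.05, 11.22, 11.05 and 11.003. In 5XFAD arrays 1 to 5 it was 12.10, 11.996, 11.88, 12.01 and 12.03, and in Trem2-/-5XFAD the lowest, median and highest values were 11.68, 11.81 and 11.90. Both groups with the transgenes were above both without.

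Ctsz rose by 0.68 ± 0.09 on the log2 scale with Trem2 (limma, adjusted p = 1.71e-05) and by 0.72 ± 0.09 without it (adjusted p = 3.21e-05). The interaction was 0.04 ± 0.13, with a 95% confidence interval of -0.22 to 0.31 (limma, adjusted p = 0.933). The 5XFAD values and those of Trem2-/-5XFAD overlapped at the edge, and their difference was -0.20 ± 0.08 (adjusted p = 0.16).

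Ctsb encodes cathepsin B, an abundant cysteine protease with endopeptidase and carboxypeptidase activity. Its log2 intensity in WT arrays 1 to 4 was 11.45, 11.49, 11.52 and 11.67, and in Trem2-/- arrays it was 11.46, 11.51, 11.49 and 11.34. In 5XFAD arrays 1 to 5 it was 12.08, 12.06, 12.07, 12.09 and 11.93, and in Trem2-/-5XFAD the lowest, median and highest values were 11.51, 11.88 and 11.99. The 5XFAD arrays were all above WT, and the Trem2-/-5XFAD arrays all above Trem2-/-, the lowest by a small margin. Ctsb rose by 0.52 ± 0.10 with Trem2 (limma, adjusted p = 8.36e-04) and by 0.37 ± 0.09 without it (adjusted p = 0.041). The second call was lost when any array of these 10 but Trem2-/-5XFAD array 2 was left out, with differences of 0.34 to 0.39 and adjusted p of 0.0573 to 0.104, and over all alternatives its adjusted p ran from 0.00457 to 0.29.

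Ctsl encodes cathepsin L, an endopeptidase of lysosomes. Its log2 intensity in WT arrays 1 to 4 was 10.81, 11.02, 10.86 and 11.01, and in Trem2-/- arrays it was 10.86, 10.95, 10.90 and 10.71. In 5XFAD arrays 1 to 5 it was 11.35, 11.34, 11.49, 11.43 and 11.29, and in Trem2-/-5XFAD the lowest, median and highest values were 11.12, 11.20 and 11.35. WT and Trem2-/- overlapped, and both groups with the transgenes were above both without. Ctsl rose by 0.45 ± 0.09 with Trem2 (limma, adjusted p = 9.52e-04) and by 0.36 ± 0.08 without it (adjusted p = 0.0277). The second call was lost without Trem2-/- array 1, 3 or 4 or Trem2-/-5XFAD array 1, 3, 4 or 5, with adjusted p of 0.0508 to 0.0863, and over all alternatives its adjusted p ran from 0.00191 to 0.172.

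Ctsh encodes cathepsin H, which trims residues from the start of proteins. Its log2 intensity in WT arrays 1 to 4 was 9.85, 9.92, 10.16 and 10.06, and in Trem2-/- arrays it was 10.03, 10.29, 10.17 and 9.88. In 5XFAD arrays 1 to 5 it was 10.41, 10.36, 10.24, 10.40 and 10.30, and in Trem2-/-5XFAD the lowest, median and highest values were 9.99, 10.08 and 10.25. The 5XFAD arrays were above WT, while Trem2-/-5XFAD overlapped both groups without the transgenes. Ctsh rose with 5XFAD by 0.34 ± 0.10 (limma, adjusted p = 0.023). Without Trem2 the difference was -0.00 ± 0.10 (adjusted p = 0.991), and the interaction was -0.34 ± 0.14 (adjusted p = 0.241). Without WT array 1 or 2 or 5XFAD array 1 or 4 the difference with 5XFAD was 0.29 to 0.33 (limma, adjusted p = 0.0507 to 0.0763), and without the 4 arrays with salivary gland transcripts it was 0.20 (adjusted p = 0.437); over all alternatives the adjusted p ran from 0.0068 to 0.442.

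Within arrays of one sex signal, the differences of these 6 genes between 5XFAD and WT kept their sign. In both sets one of the groups compared is a single array with no spread of its own, so that each adjusted p rests on the assumption that it varies like the other groups. Arrays with Y-linked signal only hold 1 WT and 4 5XFAD arrays, and there the log2 difference was 4.57 for Cst7, 0.79 for Ctsz, 0.58 for Cstb, 0.55 for Ctsb, 0.37 for Ctsl and 0.40 for Ctsh; under that assumption Cst7 and Ctsz were called (limma, adjusted p = 9.41e-08 and 0.00736). Arrays with Xist signal only hold 3 WT and 1 5XFAD array, and there it was 4.87 for Cst7, 0.73 for Ctsz, 1.08 for Cstb, 0.54 for Ctsb, 0.45 for Ctsl and 0.38 for Ctsh; under that assumption Cst7 alone was called (limma, adjusted p = 1.67e-04). The single arrays of these sets, WT array 2 and 5XFAD array 1, both carry salivary gland transcripts (mean levels of 5.61 and 5.16). Each was compared with arrays of which most do not carry them. The part of these transcripts in the differences within a sex signal was not tested. Without the 4 arrays with salivary gland transcripts, the difference of Ctsb with 5XFAD was 0.44 and missed the threshold (limma, adjusted p = 0.059).

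**Figure D3:**
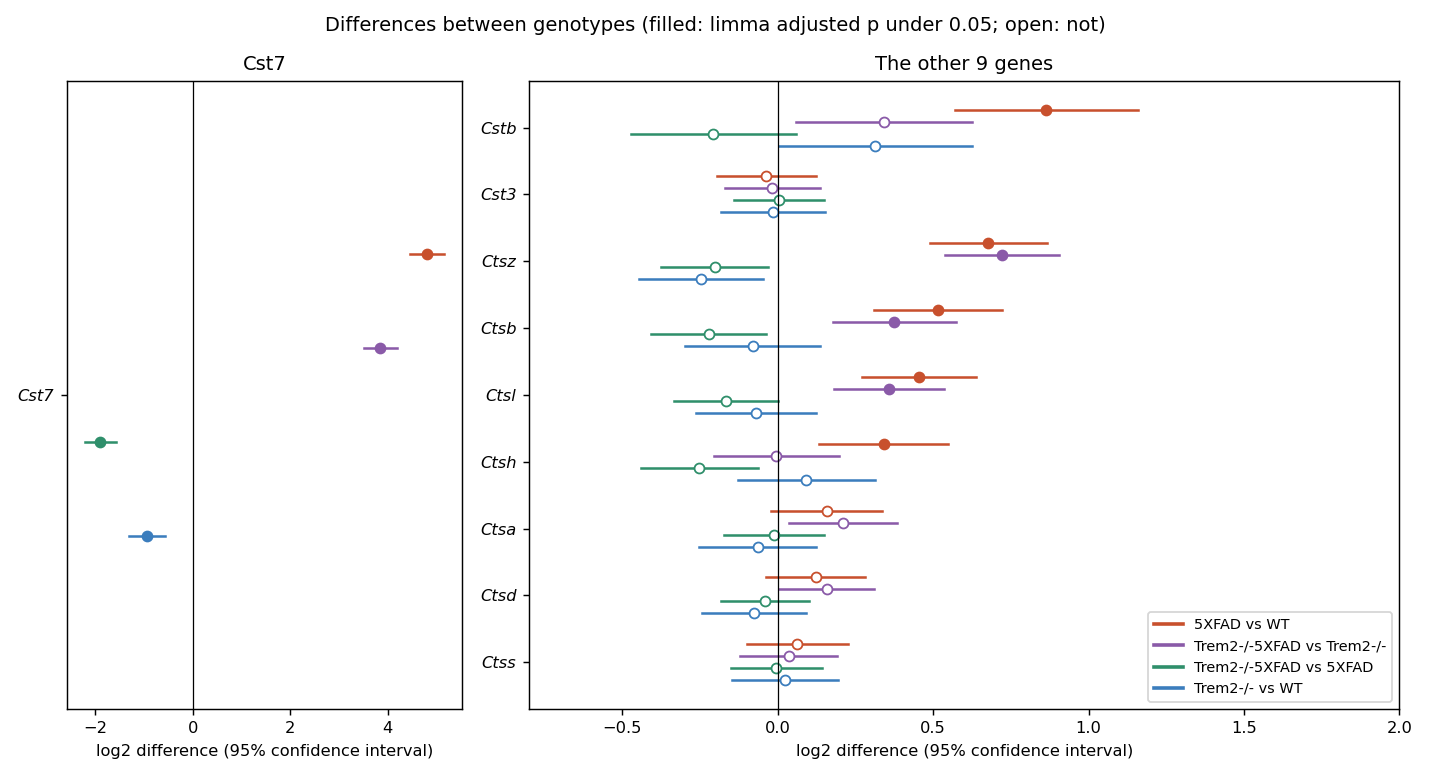
Log2 difference of the 10 genes in the 4 comparisons of genotypes, with bars for 95% confidence intervals and filled points for limma adjusted p under 0.05; Cst7 has its own scale. Cst7 stands apart at 4.81 and 3.84 with 5XFAD and at -1.90 with loss of Trem2 in 5XFAD mice, while the other genes lie between -0.25 and 0.86.

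Ctss encodes cathepsin S, which cleaves the invariant chain in antigen-presenting cells. Its log2 intensity was 11.98 to 12.13 in WT, 12.05 to 12.14 in Trem2-/-, 12.07 to 12.19 in 5XFAD and 12.03 to 12.19 in Trem2-/-5XFAD. The groups overlapped, and the difference with 5XFAD was 0.06, with a 95% confidence interval of -0.10 to 0.23 (limma, adjusted p = 0.666).

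Of the other proteases, Ctsd encodes cathepsin D, the main aspartic protease of lysosomes, and Ctsa encodes cathepsin A, which also protects the enzymes beta-galactosidase and neuraminidase in a complex. Log2 Ctsd was 12.38, 12.39, 12.48 and 12.46 in WT arrays and 12.54, 12.49, 12.56, 12.56 and 12.60 in 5XFAD arrays. It was 12.31, 12.44, 12.36 and 12.30 in Trem2-/- arrays and 12.47 to 12.54 in Trem2-/-5XFAD, with a median of 12.51. The groups with and without the transgenes did not overlap for a given Trem2 genotype, but the differences, 0.12 ± 0.08 with Trem2 and 0.16 ± 0.07 without it, were not called (limma, adjusted p = 0.327 and 0.333); with an intensity trend and robust prior both were (adjusted p = 0.0494 and 0.0333). Log2 Ctsa was 11.72 to 11.87 in WT, 11.68 to 11.74 in Trem2-/-, 11.82 to 12.004 in 5XFAD and 11.70 to 12.004 in Trem2-/-5XFAD. Its differences with 5XFAD were 0.16 ± 0.09 with Trem2 and 0.21 ± 0.08 without it, and neither was called (limma, adjusted p = 0.251 and 0.227); with that prior the second was (adjusted p = 0.0483).

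**Figure D4:**
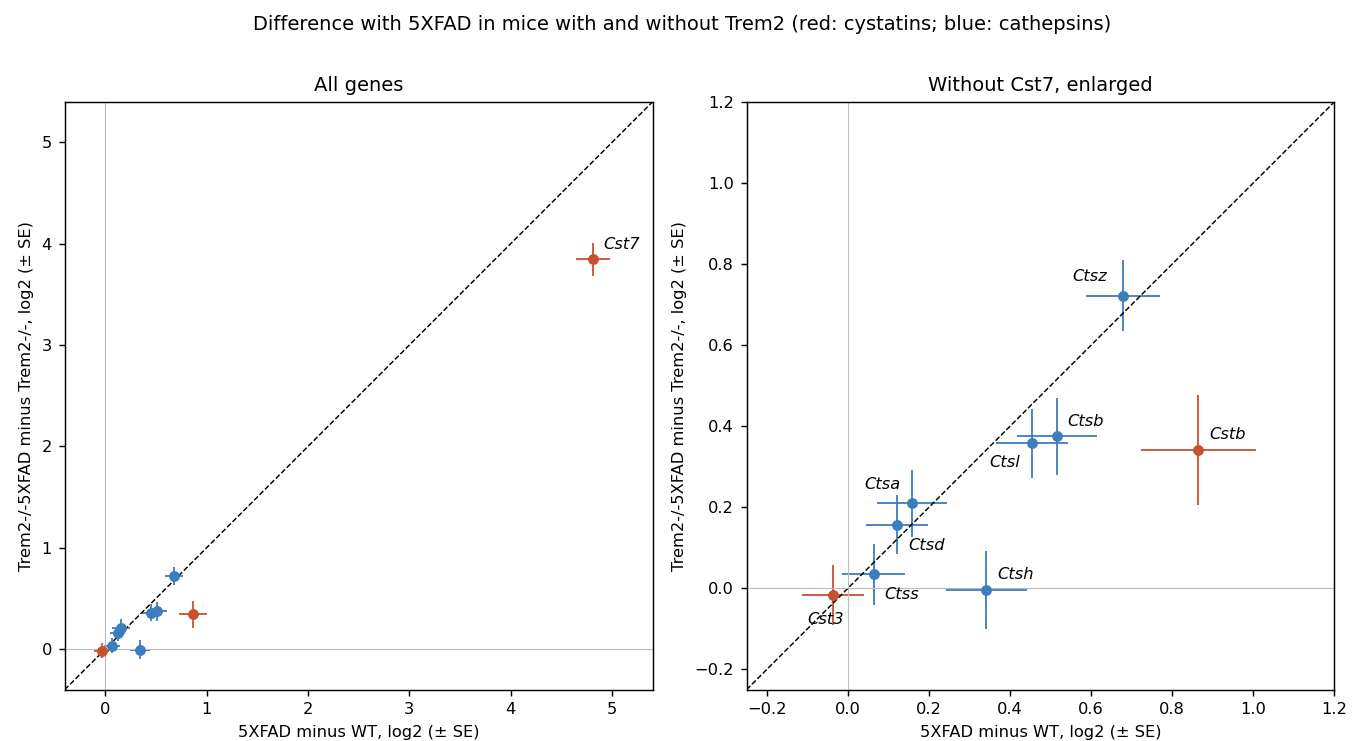
Change with 5XFAD on the log2 scale in mice with Trem2 (horizontal) against that in mice without it (vertical), 1 point per gene with its SE and a dashed line where the changes are equal; the right panel enlarges the 9 genes other than Cst7. Cst7 lies at 4.81 and 3.84, Ctsz at 0.68 and 0.72 and Cstb at 0.86 and 0.34.

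Other genes of the pathway were read by lists chosen by function, also with earlier results of these data known. Their counts stand beside the shares of all tested genes, which were 8.23% higher and 6.77% lower with 5XFAD. Of 15 other cathepsins, 4 passed the filter, and 1 rose and 1 fell with 5XFAD. Ctse, an aspartic protease of endosomes, rose by 3.19 ± 0.21 on the log2 scale (limma, adjusted p = 8.02e-10), from 4.51 to 4.75 in WT to 7.04 to 8.19 in 5XFAD. It fell by 1.97 ± 0.19 in Trem2-/-5XFAD against 5XFAD (adjusted p = 5.08e-07), rose by 1.07 ± 0.21 with 5XFAD without Trem2 (adjusted p = 0.00618) and had an interaction of -2.12 ± 0.30 (adjusted p = 2.31e-04). Ctsf, a cysteine protease, fell by 0.50 ± 0.15 with 5XFAD (adjusted p = 0.0256). Of 20 other cystatins and stefins, 1 passed the filter, Kng2, and it was called in none of the 5 comparisons.

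Of 7 other inhibitors of proteases, 4 passed the filter; Ctla2a and Serpinb6b were dim in WT and passed it mainly through 5XFAD, so they are described by level and not counted. The serpin Serpinb6a rose by 1.27 ± 0.18 on the log2 scale with 5XFAD (limma, adjusted p = 2.77e-05). Ctla2a, an inhibitor of cathepsin L, averaged 3.53 in WT and 3.54 in Trem2-/-, below the 40th percentile of the arrays (4.16 to 4.34), against 5.51 in 5XFAD and 4.60 in Trem2-/-5XFAD. Serpinb6b averaged 3.53 and 3.65 in WT and Trem2-/-, 4.70 in 5XFAD and 3.64 in Trem2-/-5XFAD.

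Of 7 other lysosomal peptidases, all were tested, and with 5XFAD 3 rose and 1 fell, beside 8.23% and 6.77% of all genes. Cpq, a carboxypeptidase, rose by 2.21 ± 0.22, Dpp7, a dipeptidyl peptidase, by 1.57 ± 0.15 and Scpep1, a serine carboxypeptidase, by 0.78 ± 0.11 (limma, adjusted p = 3.19e-07, 1.79e-07 and 3.05e-05). Lgmn, the asparaginyl endopeptidase that cleaves several cathepsin precursors, fell by 0.33 ± 0.08 (adjusted p = 0.00901). In Trem2-/-5XFAD against 5XFAD, Cpq, Dpp7 and Scpep1 fell by 1.42 ± 0.20, 0.87 ± 0.14 and 0.35 ± 0.10 (adjusted p = 5.91e-05, 2.26e-04 and 0.0339), and with 5XFAD in the absence of Trem2, Cpq and Dpp7 rose by 1.09 ± 0.21 and 0.86 ± 0.15 (adjusted p = 0.00654 and 0.00166).

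Of 17 genes for sorting and activation, 15 were tested, and 3 rose and 2 fell with 5XFAD; 15.0% of all genes were called in this comparison, and counts this small in 15 genes are not set apart from that share. Gnptab and Gnptg, subunits of the enzyme that attaches the mannose 6-phosphate signal, rose by 1.09 ± 0.18 and 0.50 ± 0.14, and Vps29, a subunit of retromer, by 0.58 ± 0.16 (limma, adjusted p = 1.82e-04, 0.0204 and 0.0132). Sortilin (Sort1), a sorting receptor, fell by 0.70 ± 0.12 and Ap1b1, an adaptor subunit, by 0.39 ± 0.12 (adjusted p = 2.61e-04 and 0.0235). Gnptab and Gnptg were lower in Trem2-/-5XFAD than in 5XFAD, by -0.75 ± 0.16 and -0.50 ± 0.13, and Sort1 was higher, by 0.45 ± 0.11 (adjusted p = 0.00514, 0.0186 and 0.0105). Of the 3 partners of cathepsin A, beta-galactosidase (Glb1) rose by 1.08 ± 0.12 with 5XFAD (adjusted p = 1.62e-06) and fell by 0.76 ± 0.11 in Trem2-/-5XFAD against 5XFAD (adjusted p = 8.85e-05); Neu1 and Galns were called in no comparison.

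Of 5 tested genes of the class II presentation pathway, in which cathepsin S cleaves the product of Cd74, 4 rose with 5XFAD, against 8.23% of all genes: Cd74 by 1.77 ± 0.18, H2-Ab1 by 1.84 ± 0.27, H2-Aa by 1.71 ± 0.28 and H2-Eb1 by 1.48 ± 0.27 (limma, adjusted p = 3.6e-07, 5.82e-05, 1.51e-04 and 4.66e-04). All 5 fell in Trem2-/-5XFAD against 5XFAD, where 4.46% of all genes did, with Cd74 down by 2.15 ± 0.16 (adjusted p = 1.1e-08), and none was called with 5XFAD in the absence of Trem2. The interaction was called as lower in 4 of the 5, against 1.58% of all genes, with Cd74 at -1.98 ± 0.25 (adjusted p = 6.18e-05). H2 genes are similar in sequence, so a probe set named for one of them may also detect another.

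**Figure D5:**
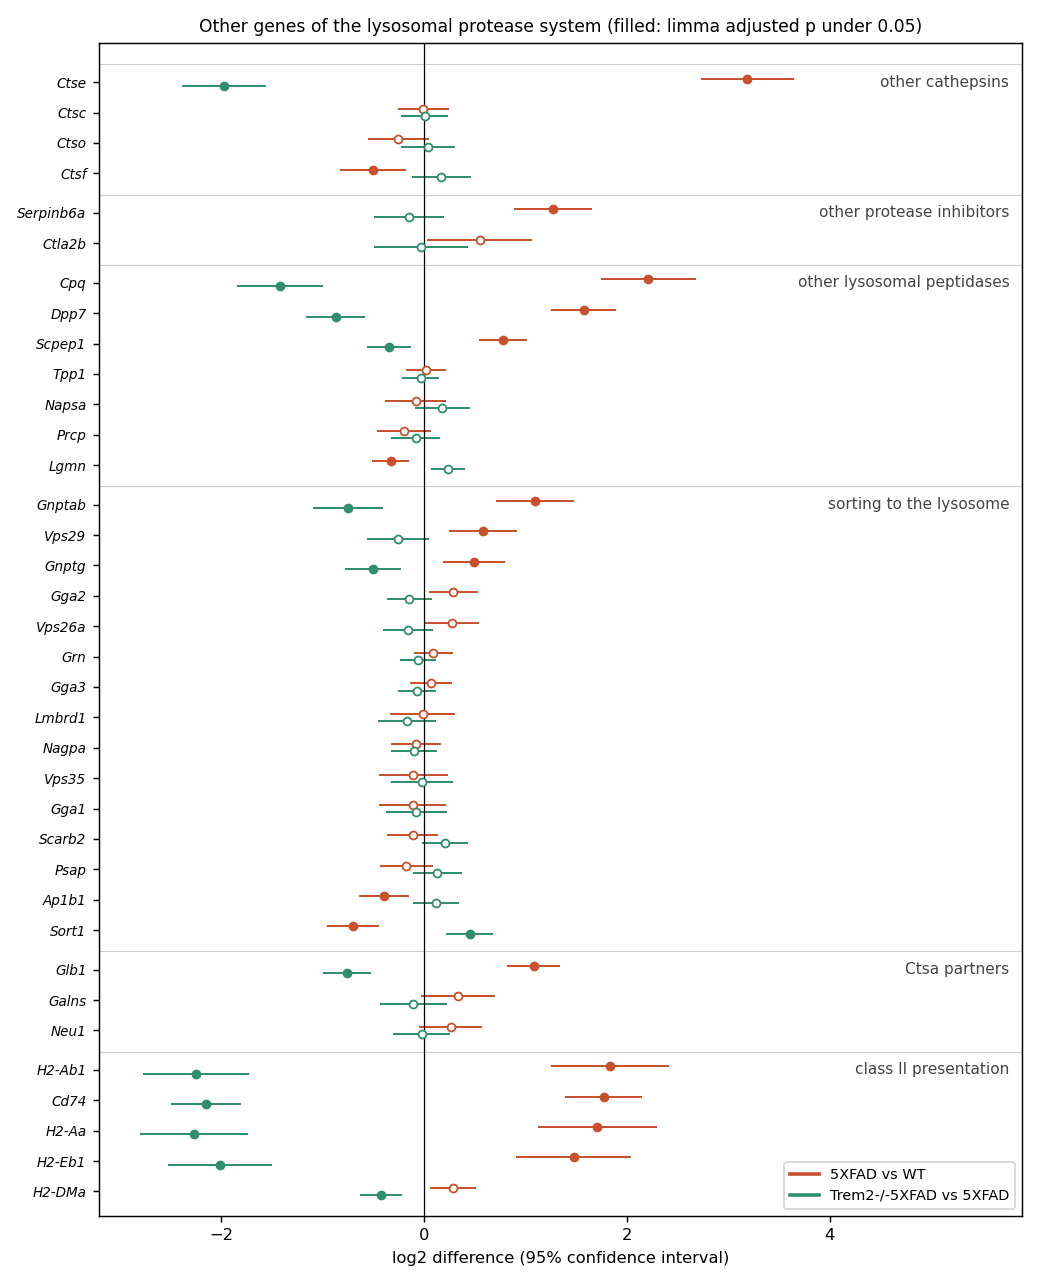
Log2 differences of the tested genes of 6 other lists of the protease system (Ctla2a and Serpinb6b, dim in WT, left out), in 5XFAD against WT and in Trem2-/-5XFAD against 5XFAD, with 95% confidence intervals and filled points for limma adjusted p under 0.05. Ctse has the widest pair of differences among the proteases, 3.19 and -1.97.

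The genes with the most similar levels to each of the 10 were found as the 3 highest Pearson correlations of log2 values over the 19 arrays; the 19 points fall into the 4 genotype groups, so each value is followed by the correlation within groups, after removal of group means. The nearest genes to Cst7 were Nceh1, an esterase of cholesterol handling (0.977, within groups 0.375), Anxa5 (0.976, within 0.493) and the cytokine Mif (0.975, within 0.573). The nearest gene to Ctsz was Cst7 (0.966, within 0.341). For Ctsd they were Ctsz (0.913, within 0.522), Lyz2 (0.891, within 0.445) and Mpeg1 (0.878, within 0.505). For these 3 genes the correlation was much lower within groups than over all arrays, as it was for Ctsb with Cd68 and Ctsl with Cpd. The nearest to Ctsb were Lgals3bp (0.951, within 0.807), Ctsl (0.941, within 0.619) and Cd68 (0.933, within 0.528). Those to Ctsl were Cpd (0.955, within 0.571), Ifitm3 (0.949, within 0.630) and Ctsb. For Cstb they were Arpc1b (0.927, within 0.724), Plaur (0.925, within 0.802) and Itga5 (0.925, within 0.698). For Ctsa they were Cd9 (0.904, within 0.821), Slc23a2 (0.896, within 0.737) and Ogdh (0.866, within 0.691). For Ctsh they were Ifi209 (0.882, within 0.748), Arrdc4 (0.866, within 0.817) and Galc (0.856, within 0.706). For Ctss and Cst3, whose groups overlapped, the highest were Ehmt2 (0.738, within 0.692) and Cmtr2 (0.775, within 0.770), nearly the same within groups as over all arrays.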

How the data were processed

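RNA of sorted microglia was measured on 20 one-colour arrays. For 24679 probe sets the authors deposited an intensity on a linear scale; how it was normalized is not stated in these sources, and column medians of 25.7 to 28.6 show a common scale. The platform annotation named 1 gene for 21354 probe sets, several for 1275 and none for 2050. The probe set with the highest mean stood for each gene, and values were taken as log2(intensity + 1).

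Genes above the array's 40th percentile in at least 4 of the 19 assigned arrays were tested with limma 3.58.1 (R 4.3.3) in 1 model over the 4 groups, with no covariate, residual degrees of freedom 15 and prior degrees of freedom 5.29, and Benjamini-Hochberg adjustment over 12728 genes. An adjusted p under 0.05 is a call. Errors of differences are standard errors. Folds are on the log2(intensity + 1) scale and are understated for dim genes. The script was tested on simulated data. The labels call the animals littermates and say no more of how samples were separated, so a p-value reflects only how arrays differ, and the number of arrays limits the precision.

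The 10 genes and all lists were chosen with earlier results of these data known. Named genes were the 10, Trem2, up to 4 genes per list and comparison with the smallest p, and the 3 most correlated genes of each. Alternatives covered the pseudocount (16), the filter, scaling, probe set choice, arrays in the fit, the array with conflicting labels, a replicate block, sex and marker covariates, the prior and leaving out arrays. Of these, 5, on salivary gland transcripts, sex signal and neutrophil markers, were added after seeing the data.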

Additional observations from a re-analysis of the deposited data

Results flagged for a closer look

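In the 40 sets formed by the 10 genes and 4 genotypes, 2 arrays lay far from the rest of their group by Dixon's criterion, where chance gives about 1 in 20. Log2 Ctsb in 5XFAD array 5 was 11.93 against 12.06 in the next array, a gap of 0.802 of the group's range. Log2 Ctsa in Trem2-/-5XFAD array 2 was 11.70 against 11.90 in the next, a gap of 0.671 of the range; the same array was also the lowest of its group for Ctsb (11.51), Ctsl (11.12) and Ctss (12.03), and the highest for Cst7 (10.61) and Ctsz (11.90). The change of Cst7 with 5XFAD differed between mice with and without Trem2, with an interaction of -0.97 on the log2 scale (limma, adjusted p = 0.0288).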

How the results depend on the processing

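Cst7 with 5XFAD, with and without Trem2, and Cst7 in Trem2-/-5XFAD against 5XFAD kept their direction and call under all alternatives run; the other calls were lost under at least 1, except Ctsz in Trem2-/-5XFAD against Trem2-/-. The number of the 10 genes called in 5XFAD against WT, 6, was 2 in arrays with Y-linked signal only, 1 in arrays with Xist signal only and 1 in the 4 arrays with salivary gland transcripts, settings with fewer arrays, and 5 to 6 with 1 array left out. It was 4 without the 4 arrays with salivary gland transcripts. Quantile normalization, only the groups compared, the replicate block and the other brain cell or border macrophage covariate each gave 5. With an intensity trend and robust prior it was 7. That prior gave 4 in place of 1 in Trem2-/-5XFAD against 5XFAD, and 6 in place of 4 in Trem2-/-5XFAD against Trem2-/-. Ctsd (both comparisons with 5XFAD), Ctsa, Ctsz, Ctsb and Ctsh were gained. In Trem2-/- against WT it was 0 in place of 1 with only the groups compared, the conflicting array in Trem2-/-, the neutrophil or other brain cell covariate, without the 2 arrays highest in neutrophil markers and in arrays with Xist signal only, and 0 to 1 with 1 array left out. In Trem2-/-5XFAD against Trem2-/- it was 2 in place of 4 with median centring, only the groups compared, the sex term, the other brain cell covariate, without the 2 arrays highest in neutrophil markers and in arrays with Y-linked signal only, and 2 to 4 with 1 array left out. The interaction count was 0 in place of 1 in arrays with Y-linked signal only, and 0 to 1 with 1 array left out. Without the 4 arrays with salivary gland transcripts, the interaction count stayed 1, as did that in Trem2-/- against WT. In both, Cstb was then called in place of Cst7. The cause of these changes was not tested.

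With the replicate number as a block, the count in Trem2-/-5XFAD against Trem2-/- was 2 in place of 4, and Ctsh in 5XFAD against WT was 0.35 (limma, adjusted p = 0.0518). Same-numbered arrays correlated at -0.10 to 0.17 after removal of group means (25 pairs), and arrays with different numbers at -0.17 to 0.18 (109 pairs). The numbers were therefore not taken to pair the samples. Whether some same-numbered arrays, such as those with salivary gland transcripts, share a source of variation was not tested.

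Sign changes, 53 in all, of which 18 with 1 array left out, concerned differences that were called neither before nor after and were at most 0.21 in size. In Trem2-/-5XFAD against Trem2-/-, Ctsh was 0.024 and Cst3 0.0030 with the replicate block, and Ctsh was 0.010 with quantile normalization, 0.21 with Y-linked arrays only, 0.0012 with the conflicting array in Trem2-/-, 0.11 with the sex term and 0.055 with the other brain cell covariate. Ctss there was -0.019 with quantile normalization and -0.019 with median centring. In 5XFAD against WT, Ctss was -0.032 with quantile normalization and Cst3 0.048 in the salivary arrays. In Trem2-/-5XFAD against 5XFAD, quantile normalization gave Ctsd 0.055, Ctss 0.093 and Ctsa 0.13, Ctsa was 0.023 without the salivary arrays and 0.0064 with Y-linked arrays only, Ctss was 2.5e-04 with the border macrophage covariate, and Cst3 was -0.037 with median centring, -0.0044 with the neutrophil covariate and -0.0039 without the neutrophil-high arrays. In Trem2-/- against WT, Cst3 was 0.0034 with quantile normalization, 0.018 with the border macrophage covariate and 0.0041 with Y-linked arrays only. Ctss there was -0.025 without the salivary arrays and -8.5e-04 with Y-linked arrays only, Ctsh -0.021 and -0.040, Cstb -0.16 with Y-linked arrays only and Ctsl 0.0080 with Xist arrays only. For the interaction, Ctss was 0.013 with quantile normalization and 0.020 without the salivary arrays, Ctsl 0.13 with Y-linked arrays only, and median centring gave Ctsd -0.014, Ctsz -0.0059 and Cst3 -0.030. With 1 array left out, the ranges were -0.020 to 0.014 for Ctss, -0.040 to 0.032 for Ctsa and -0.018 to 0.025 for Cst3 in Trem2-/-5XFAD against 5XFAD, -0.0073 to 0.044 for Ctss and -0.029 to 2.3e-04 for Cst3 in Trem2-/- against WT, -0.074 to 0.062 for Ctsh in Trem2-/-5XFAD against Trem2-/-, and -0.049 to 0.0021 for Ctss, -0.020 to 0.091 for Ctsz and -0.0029 to 0.040 for Cst3 in the interaction. Over all genes in 5XFAD against WT, quantile normalization called 961 higher and 1074 lower, in place of 1047 and 862; in Trem2-/-5XFAD against 5XFAD it called 523 and 499 in place of 409 and 568, and median centring called 286 and 625. In Trem2-/-5XFAD against Trem2-/- median centring called 141 and 92 in place of 207 and 71, and in the interaction it called 78 and 224 in place of 130 and 201.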
